A study of Mus musculus with 12 samples.

Results

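The 10 genes linked to NRF2, the transcription factor that cells use against oxidants, were followed through whole lung tissue of mice exposed to cigarette smoke and of control mice: Slc7a11, Gclc, Gclm, Txnrd1, Srxn1, Gpx2, Nqo1, Hmox1, Akr1b8 and Nfe2l2. They were chosen by gene symbol, with earlier results of these data known, as 10 of the 16593 named genes on the array. They carried 14 probes, of which 12 were detected on enough arrays to be tested and 2 were left out, and each of the 10 genes kept at least 1 probe. The study measured total lung RNA of female C57BL/6N mice kept under specific pathogen free conditions on 12 Illumina bead arrays, with 3 arrays in each of 4 groups: 4-month-old and 6-month-old animals, each either smoke-treated or control. No genetic change or further agent is labelled in any group, and the dose and length of smoke exposure and the time from the last exposure to sampling are stated in none of the labels. The labels call the arrays biological replicates and do not say which animals they came from. Between 55.1 and 57.6% of probes were detected on an array, all 7 tested markers of alveolar epithelium were detected in every group, and precision rests on having only 3 arrays in a group.

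NRF2, encoded by Nfe2l2, is held in the cytosol and sent to degradation by KEAP1, which senses oxidants and reactive chemicals through its cysteines. When KEAP1 is modified, NRF2 accumulates, pairs with small MAF proteins and binds antioxidant response elements near genes for glutathione synthesis, thiol reduction and the clearance of quinones, haem and carbonyls. In the lung, cigarette smoke is a known activator of this pathway, and mice that lack Nfe2l2 are known to be more prone to emphysema under smoke. Because NRF2 is controlled mainly through the stability of its protein, the RNA of Nfe2l2 itself need not move with its activity.

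Promoter sequences were looked up because the members share a regulator. The RefSeq table of mouse promoters (GRCm38.p6, windows from 250 bases before to 50 after an annotated start) matched 8 of the 10 genes with 10 windows, Txnrd1 having 3, and Gclc and Hmox1 were not matched. The core of the antioxidant response element, TGACNNNGC, was searched on both strands together with the AP-1 site TGAGTCA. The reverse complement of the AP-1 site can lie inside the core, so matches of both may overlap, although none did here. The core was present in 4 of the 10 windows, those of Gclm, Srxn1, Nfe2l2 and 1 of the 3 of Txnrd1, against 12.4% of all 32851 windows in the table. The AP-1 site was present in 1 member window, that of Srxn1, which held 2 copies, against 5.2% of all windows. The windows of Slc7a11, Nqo1 and Akr1b8, which the results below turn on, are shown whole, and no match lay within them. The window of Slc7a11 lies inside the annotated span of that gene, chr3:50364936-50499087. The upstream end of that span was therefore not searched. The whole window of Srxn1 and short stretches around the match in the other genes are shown for comparison. Each sequence runs 5′ to 3′ on the strand of the gene, with matches in capitals.
Slc7a11, chr3:50443564-50443863, minus strand: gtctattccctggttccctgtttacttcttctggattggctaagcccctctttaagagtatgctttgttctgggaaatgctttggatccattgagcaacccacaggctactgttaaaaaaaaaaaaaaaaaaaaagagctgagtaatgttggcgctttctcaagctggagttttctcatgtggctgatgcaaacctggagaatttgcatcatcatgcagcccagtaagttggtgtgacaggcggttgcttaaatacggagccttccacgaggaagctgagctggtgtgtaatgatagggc
Nqo1, chr8:107403156-107403455, minus strand: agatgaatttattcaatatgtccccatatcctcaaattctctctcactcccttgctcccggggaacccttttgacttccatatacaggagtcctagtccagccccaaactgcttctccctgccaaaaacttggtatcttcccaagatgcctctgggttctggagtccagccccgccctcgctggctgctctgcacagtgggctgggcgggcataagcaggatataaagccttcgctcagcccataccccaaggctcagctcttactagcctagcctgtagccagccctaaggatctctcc
Akr1b8, chr6:34353896-34354195, plus strand: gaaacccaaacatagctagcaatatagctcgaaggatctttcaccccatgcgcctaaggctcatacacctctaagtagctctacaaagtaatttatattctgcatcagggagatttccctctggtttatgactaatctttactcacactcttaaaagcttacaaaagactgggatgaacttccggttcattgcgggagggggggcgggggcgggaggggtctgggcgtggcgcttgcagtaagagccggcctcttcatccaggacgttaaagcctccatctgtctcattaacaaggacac
Srxn1, chr2:152105274-152105573, plus strand: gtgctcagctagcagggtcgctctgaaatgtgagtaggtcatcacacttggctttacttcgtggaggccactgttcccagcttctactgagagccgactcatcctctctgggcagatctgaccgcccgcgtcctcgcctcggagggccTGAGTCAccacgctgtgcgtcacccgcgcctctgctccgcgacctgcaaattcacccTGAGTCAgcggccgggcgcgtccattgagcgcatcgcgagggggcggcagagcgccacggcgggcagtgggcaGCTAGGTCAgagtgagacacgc
Gclm, chr3:122245403-122245451, plus strand: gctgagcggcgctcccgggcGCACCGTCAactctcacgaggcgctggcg
Txnrd1, chr10:82859094-82859142, plus strand: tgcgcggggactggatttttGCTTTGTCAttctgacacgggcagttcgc
Nfe2l2, chr2:75704875-75704913, minus strand: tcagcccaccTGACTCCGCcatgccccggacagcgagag
Counted from the start, with negative positions before it, the core in Gclm lay at -134 to -126 and that in Txnrd1 at -92 to -84, both on the opposite strand. In Srxn1 the core lay at bases 29 to 37 after the start, on the opposite strand, and the AP-1 sites at -102 to -96 and -45 to -39. In Nfe2l2 it lay at -240 to -232. A match is a run of letters and not a measured binding site, and windows of this size leave out more distant elements.

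**Figure D1:**
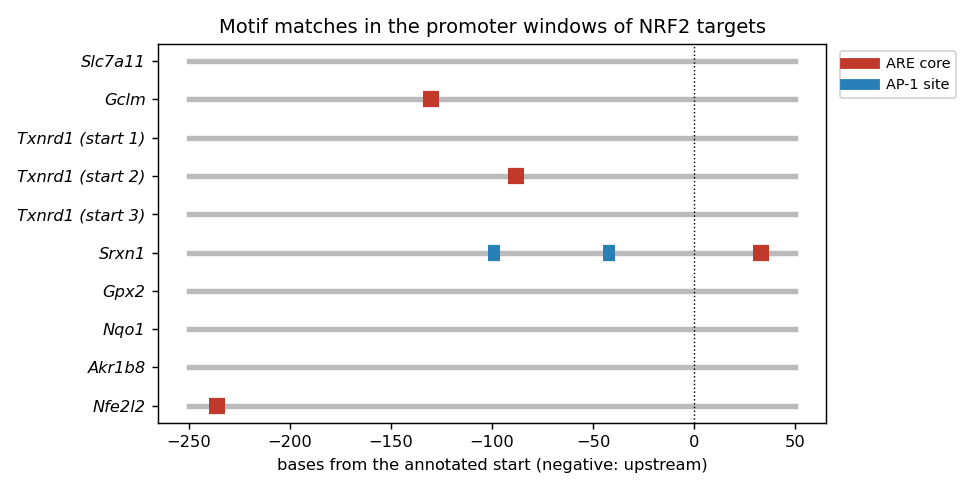
Motif matches in the promoter windows of the 8 matched genes; the horizontal axis is the distance in bases from the annotated start, each grey line is 1 window, red blocks are matches of the antioxidant response element core and blue blocks of the AP-1 site. The core appears in the windows of Gclm, Srxn1, Nfe2l2 and 1 of 3 of Txnrd1, and in none of Slc7a11, Gpx2, Nqo1 and Akr1b8.

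In smoke-exposed lungs some of these genes passed as higher and the others did not pass, which does not show them to be unchanged. At 4 months Slc7a11, Nqo1 and Akr1b8 rose, and at 6 months Slc7a11, Hmox1 and Akr1b8 rose, by 1.44-fold to 3.19-fold over both ages. No member passed as lower at either age, where 0.37% of all tested genes did at 4 months and 1.73% at 6 months. Levels are normalized log2 intensities, so a difference of 1 stands for a 2-fold change, and a gene passed when its limma p-value, adjusted by Benjamini-Hochberg over all probes tested, was below 0.05. At 4 months 3 of 10 members passed as higher, where 1.28% of all 10541 tested genes did. At 6 months 3 of 10 passed as higher, where 3.35% of all genes did. The members' median log2 difference was 0.46 at 4 months and 0.35 at 6 months, beside -0.03 and -0.02 over all tested genes. The difference was above 0 in 9 of 10 members at 4 months and in 10 of 10 at 6 months, beside 45.4% and 46.9% of all genes. At 6 months Gpx2, Nfe2l2 and Gclc lay near 0, at 0.01, 0.06 and 0.11. Leaving out single arrays brought them as low as -0.22, -0.11 and -0.02, so their sign is not set. All 3 smoke arrays lay above all 3 control arrays in 6 members at 4 months, where 9.42% of all genes did so, and in 5 members at 6 months, where 10.7% did.

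**Figure D2:**
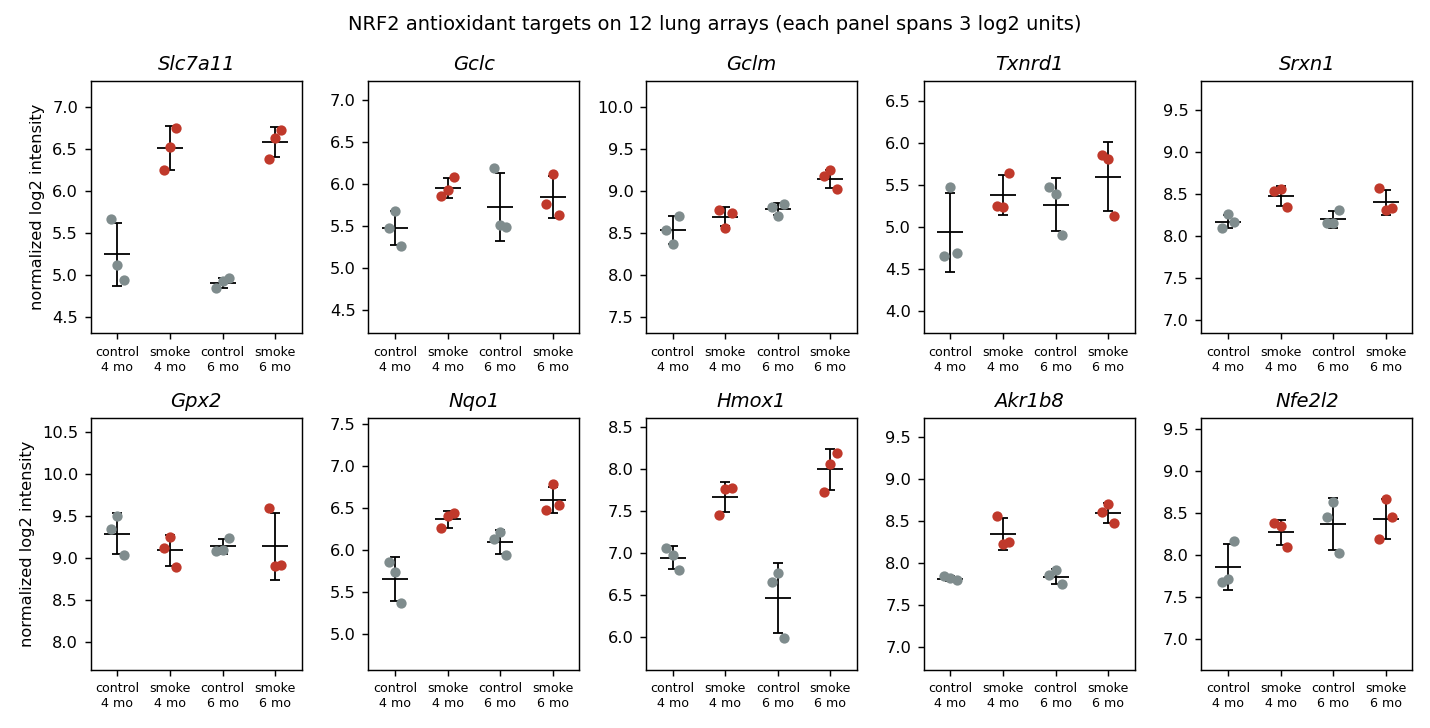
Normalized log2 intensity of each member (vertical axis) in the 4 groups (horizontal axis); points are arrays, and the bar and whiskers are the mean and SD of 3 arrays. The smoke and control arrays separate at both ages in Slc7a11, Nqo1, Hmox1 and Akr1b8, and overlap at both ages in Txnrd1, Gpx2 and Nfe2l2.

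Glutathione synthesis starts with the import of cystine and the joining of its cysteine to glutamate. Slc7a11, the cystine and glutamate exchanger xCT, showed the largest difference of the members at both ages. At 4 months its levels were 5.67, 5.13 and 4.95 in the control arrays and 6.25, 6.53 and 6.76 in the smoke arrays. At 6 months they were 4.85, 4.93 and 4.97 in the controls and 6.39, 6.64 and 6.73 under smoke. Every smoke array was thus above every control array of either age. The rise was 1.27 ± 0.18 at 4 months (log2 difference ± SE, 3 against 3 arrays, 2.41-fold, adjusted p = 0.00285) and 1.68 ± 0.18 at 6 months (3.19-fold, adjusted p = 0.000211). Among all 10541 genes ordered from the highest to the lowest difference, Slc7a11 stood at place 46 at 4 months and 53 at 6 months. The call held without each of the 12 arrays at both ages. The probe is dim in control lungs: raw intensities were 17 to 34 at 4 months and 12 to 13 at 6 months, where 1 of 3 control arrays detected it. A larger offset added before the log therefore shrank its differences, to 0.80 and 1.02 with an offset of 50 in place of 16, and the fold is not sharply set.

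Gclc and Gclm, the catalytic and the modifier subunit of glutamate-cysteine ligase, the limiting enzyme of glutathione synthesis, did not pass at either age. Gclc was at 5.48, 5.68 and 5.27 in controls and at 5.86, 5.93 and 6.09 under smoke at 4 months, with no overlap, and its log2 difference was 0.48 (95% interval 0.07 to 0.89, adjusted p = 0.274). At 6 months its groups overlapped, at 6.19, 5.52 and 5.49 against 5.77, 6.12 and 5.64, with a difference of 0.11 (-0.30 to 0.52, adjusted p = 0.843). Gclm showed the other order of ages. At 4 months its groups overlapped, at 8.54, 8.37 and 8.71 in controls against 8.78, 8.57 and 8.74, with a difference of 0.16 (-0.09 to 0.41, adjusted p = 0.55). At 6 months all smoke arrays, at 9.18, 9.25 and 9.03, were above the controls at 8.81, 8.71 and 8.85, and the difference of 0.36 did not pass (0.11 to 0.61, adjusted p = 0.107). The intervals leave room for changes of up to 0.89 in Gclc and 0.61 in Gclm. The member that imports the precursor thus passed at both ages while neither ligase subunit passed, and whether their differences were unequal was not tested.

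**Figure D3:**
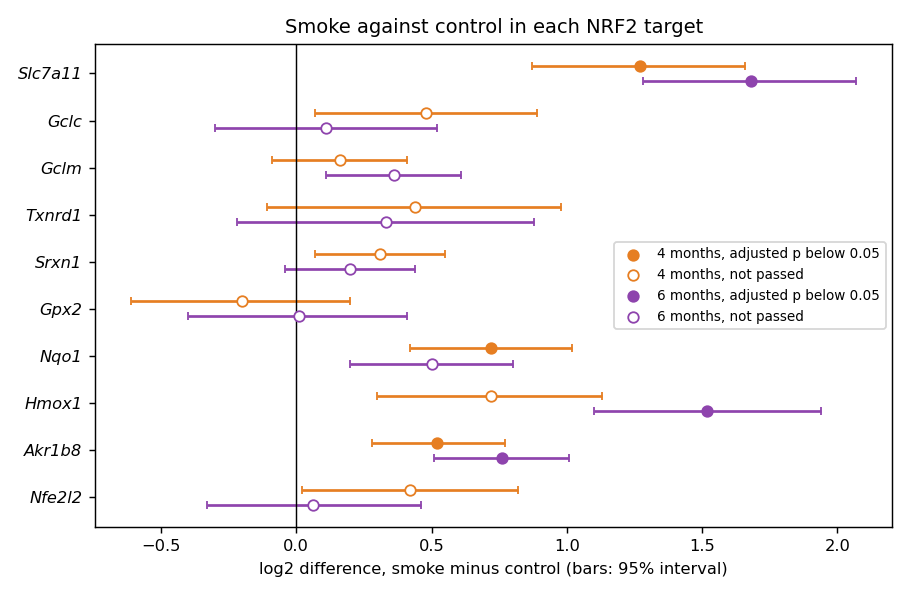
Log2 difference between smoke and control arrays of each member (horizontal axis) at 4 months (orange) and 6 months (purple), with 95% intervals from limma; filled points passed at an adjusted p below 0.05. Slc7a11 and Akr1b8 passed at both ages, Nqo1 at 4 months and Hmox1 at 6 months.

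Of the members that keep thiols reduced or remove peroxides, none passed. Srxn1, sulfiredoxin, which repairs overoxidised peroxiredoxins, had 3 tested probes, and all 3 were higher under smoke at both ages without passing. Its brightest probe was at 8.09, 8.26 and 8.17 in controls and 8.54, 8.56 and 8.34 under smoke at 4 months, with no overlap and a difference of 0.31 (95% interval 0.07 to 0.55, adjusted p = 0.239). At 6 months it was at 8.15, 8.15 and 8.31 against 8.57, 8.31 and 8.33, where the groups met, with a difference of 0.20 (-0.04 to 0.44, adjusted p = 0.416). The other 2 probes of Srxn1 differed by 0.32 and 0.29 at 4 months and by 0.18 and 0.17 at 6 months, and the groups of both overlapped. Txnrd1, the cytosolic thioredoxin reductase, was dim, and 1 of 3 control arrays detected it at 4 months. Its control values of 4.66, 5.48 and 4.69 and its smoke values of 5.25, 5.24 and 5.65 overlapped (difference 0.44, -0.11 to 0.98, adjusted p = 0.458). At 6 months they did so again, at 5.48, 5.40 and 4.91 against 5.86, 5.81 and 5.13 (0.33, -0.22 to 0.88, adjusted p = 0.585). Gpx2, a glutathione peroxidase of epithelia, was the only member below 0 at 4 months. It was at 9.34, 9.50 and 9.03 in controls and 9.12, 9.25 and 8.89 under smoke at 4 months (-0.20, -0.61 to 0.20, adjusted p = 0.642). At 6 months it was at 9.08, 9.09 and 9.24 against 9.60, 8.90 and 8.92 (0.01, -0.40 to 0.41, adjusted p = 0.993). Its smoke mean at 6 months was held up by replicate 1, without which the difference was -0.22.

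Nqo1, Hmox1 and Akr1b8 detoxify quinones, haem and carbonyls, and each passed at 1 age or both. Nqo1, the quinone reductase used as a standard readout of NRF2, was at 5.86, 5.74 and 5.37 in controls and 6.27, 6.41 and 6.45 under smoke at 4 months. At 6 months it was at 6.14, 6.22 and 5.95 against 6.48, 6.79 and 6.54. The groups did not overlap at either age. The rise at 4 months was 0.72 ± 0.14 (1.64-fold, adjusted p = 0.0208), and the difference of 0.50 ± 0.14 at 6 months did not pass (adjusted p = 0.0643). Both calls moved with single arrays. Leaving out smoke replicate 1 of that age ended the 4-month call (adjusted p = 0.0527), as did leaving out replicate 2 (0.0964) or 3 (0.105) or keeping only the 4-month arrays in the fit (0.0615), and its size was 0.47 with an offset of 50. The 6-month difference passed without control replicate 3 of the 4-month group (0.0291) and with array weights (0.0453). The other probe of Nqo1 was not detected on any array.

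Hmox1, haem oxygenase 1, which breaks haem into biliverdin, iron and carbon monoxide and which macrophages make in quantity, was at 7.06, 6.97 and 6.79 in controls and 7.45, 7.76 and 7.77 under smoke at 4 months. At 6 months it was at 6.65, 6.76 and 5.98 in controls and 7.72, 8.06 and 8.18 under smoke. Smoke and control arrays did not overlap, either within an age or across ages. At 4 months the difference of 0.72 ± 0.19 did not pass (adjusted p = 0.112), although it equalled that of Nqo1 in size. It passed there without control replicate 3 of the 6-month group (0.0276), the array with the lowest Hmox1 value of all 12. It also passed there with array weights (0.0381) and with only the 4-month arrays in the fit (0.0438). At 6 months Hmox1 rose by 1.52 ± 0.19 (2.87-fold, adjusted p = 0.000613), and the call held without each of the 12 arrays, with a difference of 1.28 to 1.67. It stood at place 62 of all genes by that difference, from place 148 at 4 months.

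Akr1b8, an aldo-keto reductase of aldehydes, had tight control values. They were 7.84, 7.82 and 7.79 at 4 months and 7.85, 7.91 and 7.74 at 6 months, against 8.56, 8.22 and 8.24 and then 8.60, 8.70 and 8.47 under smoke. All 6 smoke arrays lay above all 6 control arrays. The rise was 0.52 ± 0.11 at 4 months (1.44-fold, adjusted p = 0.0416) and 0.76 ± 0.11 at 6 months (1.69-fold, adjusted p = 0.00208). The 4-month call sits close to the threshold. It was lost without any of the 6 arrays of that age and without 4 of the 6 of the other age (smoke replicates 1 and 3 and control replicates 1 and 2), at an adjusted p of 0.0537 to 0.166, with only the 4-month arrays in the fit (0.114) and with the replicate number as a block (0.0582). Its size stayed between 0.41 and 0.58 in these settings. The 6-month call held without each of the 12 arrays. Without smoke replicates 1, 2 or 3 of the 4-month group, then, only Slc7a11 passed of the 10 members at 4 months.

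Nfe2l2, which encodes NRF2, did not pass. Its detected probe was at 7.68, 7.72 and 8.17 in controls and 8.38, 8.35 and 8.10 under smoke at 4 months, where the groups overlapped (0.42, 95% interval 0.02 to 0.82, adjusted p = 0.332). At 6 months it was at 8.45, 8.63 and 8.03 against 8.19, 8.67 and 8.45 (0.06, -0.33 to 0.46, adjusted p = 0.924). The RNA of the regulator thus passed at neither age, while Slc7a11 and Akr1b8 passed at both. Whether their differences were unequal to that of Nfe2l2 was not tested. Its other probe was detected on none of the 12 arrays.

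Age was compared within controls, within smoke-exposed lungs and as a change of the smoke difference, and no member passed in any of the 3. In controls 0.0569% of all genes passed between 6 and 4 months, and in smoke-exposed lungs 0.019%. Control levels did not all stay put in value: at 6 months Nqo1 was 0.45 higher than at 4 months (95% interval 0.14 to 0.75, adjusted p = 0.158) and Nfe2l2 0.51 higher (0.12 to 0.91, adjusted p = 0.187), while Hmox1 was at -0.48 (-0.90 to -0.06, adjusted p = 0.226). The control groups of the 2 ages did not overlap for Nqo1 and Gclm, higher at 6 months as were 8.06% of all genes in this way, nor for Hmox1, lower as were 8.65%. Under smoke the largest value was that of Gclm, at 0.45 (0.21 to 0.70, adjusted p = 0.221), with no overlap between ages for it and Nqo1, where 11.5% of all genes were higher without overlap. The smoke difference of Hmox1 was 0.81 larger at 6 months than at 4 (0.22 to 1.40), with an unadjusted p of 0.0114 and an adjusted p of 0.51 by limma. It was the only member with an unadjusted p below 0.05 there, and 0.0% of all genes (0 of 10541) passed that test. That of Slc7a11 was larger by 0.41 (-0.15 to 0.96, adjusted p = 0.682) and that of Nqo1 changed in value by -0.22 (-0.64 to 0.21, adjusted p = 0.767). A member that passed at 1 age and not at the other has therefore not been shown to differ between ages. The 6-month controls enter both the smoke comparison and the age comparison, so a high or low value there moves both.

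**Figure D4:**
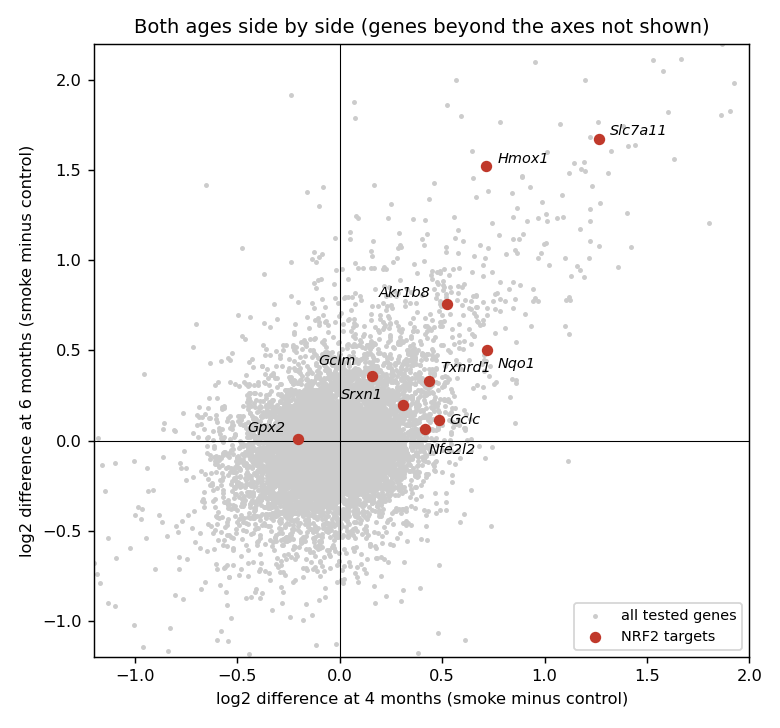
Log2 difference between smoke and control at 4 months (horizontal axis) and at 6 months (vertical axis) for the tested genes within the axes (grey) and the 10 members (red). Slc7a11 lies farthest out at 1.27 and 1.68, Hmox1 lies above the diagonal at 0.72 and 1.52, and Gpx2 lies left of 0 at 4 months.

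The other genes of the pathway, listed by role, were counted beside the members. Of 63 tested genes none passed at 4 months, and at 6 months 2 were higher, 2 lower and 59 did not pass. Over all tested genes 1.28% were higher and 0.37% lower at 4 months, and 3.35% were higher and 1.73% lower at 6 months, so that the pathway's higher count lies near the share over all genes. Their median difference was 0.12 at 4 months and -0.01 at 6 months, beside -0.03 and -0.02 over all tested genes. The difference was above 0 in 44 of 63 at 4 months and in 31 of 63 at 6 months, beside 45.4% and 46.9% of all genes. Among the regulators and partners of NRF2, 2 of 12 fell at 6 months, where 1.73% of all genes were lower. Mafk, a small MAF protein that pairs with NRF2, fell from 6.12 ± 0.19 in controls to 5.21 ± 0.24 (SD, n = 3), by -0.91 ± 0.18 (adjusted p = 0.011). The 4-month groups of Mafk were at 5.44 ± 0.31 in controls and 5.28 ± 0.22 under smoke, so the 6-month controls stood above the other 3 groups. They were 0.68 above the 4-month controls, without overlap (adjusted p = 0.118). Nfe2l3, a relative of NRF2, fell from 5.40 ± 0.17 to 4.80 ± 0.18, by -0.60 ± 0.14 (adjusted p = 0.0299). Its probe was detected on 3 of 3 control arrays and 1 of 3 smoke arrays at 6 months, so the smoke level lies mostly at background and the size of the difference is not set. Both probes are dim, and with an offset of 50 the differences were -0.54 and -0.30, the second no longer passing (0.0635). The call of Mafk was lost without smoke replicate 3 (0.0613), and that of Nfe2l3 without smoke replicate 2 (0.128) or 3 (0.0971) or control replicate 1 (0.118) or 2 (0.0763). Keap1, the sensor that holds NRF2, was at -0.07 and -0.01 at the 2 ages (adjusted p = 0.778 and 0.98), and its 3 other probes had the opposite sign at 6 months. Sesn2 and Osgin1, a pair of stress-induced genes of this list, were at 0.53 and 0.32 at 4 months (adjusted p = 0.133 and 0.278) and at -0.05 and 0.20 at 6 months.

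Antioxidant enzymes outside the member list showed 1 call among 13 tested at 6 months, where 3.35% of all genes were higher. Sod2, the manganese superoxide dismutase of mitochondria, rose at 6 months from 11.48 ± 0.04 to 11.96 ± 0.08 (SD, n = 3), by 0.49 ± 0.10 (adjusted p = 0.0117). The call was lost without smoke replicate 3 (0.0623) and with only the 6-month arrays in the fit (0.0527). At 4 months it was at 0.40 and did not pass (adjusted p = 0.0673), although it did with an offset of 50 (0.0224), no filter (0.0375), array weights (0.036) or the mean of all probes (0.0492). The other 12 of 13 tested genes of the thioredoxin, peroxiredoxin and superoxide list did not pass at either age. Cat, catalase, was at 0.71 at 4 months (adjusted p = 0.186) and -0.10 at 6 months, Txn1, thioredoxin, at 0.51 (0.223) and 0.23, and Prdx1 at 0.21 (0.364) and 0.27, where its other probe had the opposite sign. For glutathione use and recycling none of 18 passed, with medians of 0.13 and -0.05. Gsto1, Gsta4, Gstm2 and Ggt5, the 4 with the smallest p of that list, were at 0.51, 0.21, -0.24 and -0.50 at 4 months and at 0.22, 0.25, -0.33 and -0.09 at 6 months. None of the 4 tested genes of NADPH supply passed. Idh1, Me1, Taldo1 and Tkt were at 0.30, 0.22, -0.09 and -0.10 at 4 months and at 0.37, 0.09, 0.23 and 0.20 at 6 months, and the other probe went the other way for Tkt at both ages and for Me1 at 6 months.

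Haem and iron handling held 1 call among 6 tested genes at 6 months, where 3.35% of all genes were higher. Slc40a1, ferroportin, the exporter of cell iron, was at 9.54 ± 0.28 under smoke at 6 months against 8.41 ± 0.24 in controls (SD, n = 3). The difference was 1.13 ± 0.25 (adjusted p = 0.0198). At 4 months it was -0.02 (adjusted p = 0.976), with 9.05 ± 0.51 in controls and 9.03 ± 0.33 under smoke. The 6-month controls were thus the lowest of the 4 groups. From 4 to 6 months controls changed by -0.64 (adjusted p = 0.208) and smoke-exposed lungs by 0.51 (adjusted p = 0.481), both with overlap. The call was lost without smoke replicate 2 (0.0879) or 3 (0.073) or control replicate 2 (0.0576) or 3 (0.07). Blvra and Blvrb, which reduce the biliverdin that haem oxygenase makes, were at 0.27 and 0.37 at 6 months, without overlap and without passing (adjusted p = 0.212 and 0.105). Hmox2, the other haem oxygenase, was at 0.28 at 4 months and 0.11 at 6 months. Of 10 tested carbonyl and xenobiotic enzymes none passed. Ugt1a6a, a glucuronosyl transferase, was at 0.75 and 0.32 at the 2 ages (adjusted p = 0.14 and 0.536), Cbr3, a carbonyl reductase, at 0.42 and 0.26, Akr1a1 at 0.24 and 0.25, and Aldh1a1 at 0.30 and -0.19. Probes of the Ugt1a cluster and of glutathione transferases can share sequence with close paralogs, and these values are uncertain for that reason. Without control replicate 3 of the 4-month group 3 pathway genes passed at 4 months, Sesn2 (0.67, adjusted p = 0.0312), Gsto1 (0.78, 0.00901) and Ugt1a6a (1.02, 0.0157).

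**Figure D5:**
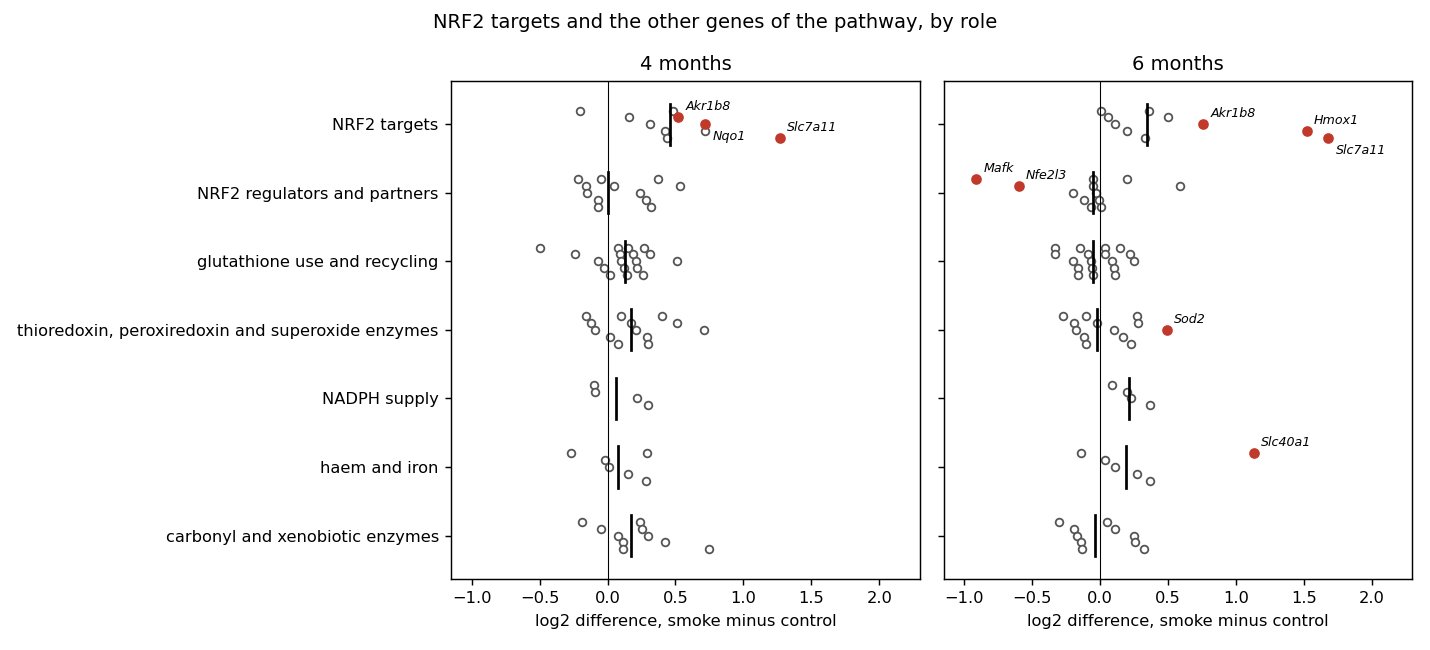
Log2 difference between smoke and control (horizontal axis) for the members and the 6 other lists of the pathway (rows) at 4 months (left) and 6 months (right); each circle is a gene, black bars are medians, and red circles passed at an adjusted p below 0.05 and are named. At 6 months Mafk and Nfe2l3 lie below 0, and Sod2 and Slc40a1 above it.

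Of the marker lists of cell types, only that of macrophages had genes that passed as higher under smoke with the main settings. Leaving out single arrays, or other settings, gave up to 1 lymphocyte marker higher at 6 months. The same held for up to 1 alveolar epithelial marker at 4 months. In these whole lungs more cells of a type and more RNA per cell cannot be told apart. Macrophage markers were higher in 4 of 7 tested genes at 4 months (3 to 5 on leaving out each array) and in 5 of 7 at 6 months (3 to 5), where 1.28% and 3.35% of all genes were higher. Their medians were 0.77 and 0.66, and Marco, a macrophage scavenger receptor, was highest at 1.58 and 2.05. Leaving out smoke replicate 3 or control replicate 1, 2 or 3 of the 6-month group gave the count of 3 at 6 months. Their summed normalized intensity was 6403 to 9049 in the 4-month controls and 12140 to 16512 in the smoke arrays of that age, and 7029 to 8338 against 11715 to 16182 at 6 months. These sums and those below are of linear values, so the brightest genes of a list weigh most. Among the macrophage markers the brightest was Chil3, at 12.57 in the 4-month controls and 13.33 under smoke. It did not pass at that age (adjusted p = 0.0965). All 7 macrophage markers were detected in every group. The lowest were Fcgr1 at 0.27 at 4 months and Mertk at 0.35 at 6 months. Their part in the differences of Slc7a11, Hmox1, Nqo1 and Akr1b8 was not tested. Of the 5 tested airway epithelial markers none passed at either age, and their summed level was 49104 to 56214 in controls against 48351 to 49442 under smoke at 4 months and 49526 to 53188 against 47353 to 51459 at 6 months. None of 7 alveolar epithelial and none of 6 neutrophil markers passed at either age with the main settings. The neutrophil median was -0.73 at 4 months, with 0 of 6 genes above 0, and -0.48 at 6 months, with 2 above 0. The summed neutrophil level varied most among arrays of 1 group, from 8280 to 39520 in the 4-month controls, and 1 of its 6 genes was not detected in the 6-month smoke group. Red blood cell markers had 2 of 4 genes lower at 4 months (0 without smoke replicate 1, 2 or 3 or control replicate 2, and up to 3 on leaving out other arrays), where 0.37% of all genes were lower, and none at 6 months. Their summed level was 36218 to 37162 in controls and 32034 to 33455 under smoke at 4 months, without overlap, and 33692 to 37143 against 32510 to 35875 at 6 months. Endothelial markers had 1 of 5 genes lower at 6 months, Tek, a vascular receptor, at -0.53 (adjusted p = 0.048), where 1.73% of all genes were lower, and 0 without any array but control replicate 2 of that age. All 5 were below 0 at 6 months, with a median of -0.41, against a median of -0.24 and no call at 4 months. Their summed level was 12345 to 13495 in controls and 11076 to 11891 under smoke at 4 months, without overlap, and 10279 to 13677 against 8865 to 10707 at 6 months. Lymphocyte markers had 1 of 6 genes lower at 4 months, where 0.37% of all genes were lower, and none passed at 6 months. The lower gene was Nkg7, a gene of cytotoxic cells, at -0.64 (adjusted p = 0.0236). At 6 months Cd4 was at 0.52, without overlap and without passing (adjusted p = 0.0531). It was detected on 2 of 3 smoke arrays and 0 of 3 control arrays of that age. The count of lower lymphocyte markers at 4 months was 0 without smoke replicate 1, 2 or 3 or control replicate 1. Their summed level was 1269 to 2717 in controls and 1289 to 1712 under smoke at 4 months, and 1525 to 2136 against 1666 to 1994 at 6 months. The part of these lists in the members' differences was not tested.

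For each member that passed, the genes with the closest course over the 12 arrays were found among the 10531 other genes, by the root mean square difference of profiles that were each centred on their own mean. This is a description of likeness, in which the group means weigh most. Slc7a11 ran closest to Itih1 and Il1rn, the interleukin-1 receptor antagonist, at 0.15 and 0.16 log2 units, where the median gene stood at 0.80. Their differences were 1.18 and 1.26 at 4 months and 1.51 and 1.77 at 6 months. Hmox1 ran closest to C1qa, a complement subunit that macrophages make, at 0.22 (differences of 0.89 and 1.46), and to Csf2 at 0.24. Nqo1 ran closest to Gstp2, a glutathione transferase, at 0.15 (0.60 and 0.51), and to Aldoc, an aldolase, at 0.18. The probe of Gstp2 may share sequence with close paralogs. Its paralog Gstp1 was at 0.02 and -0.05 at the 2 ages, and the 2 other probes of Gstp1 had the opposite sign at 6 months. Akr1b8 ran closest to Tbc1d2 at 0.11 and Cyp4v3, a cytochrome P450, at 0.13. Among the members themselves, Hmox1 was nearest to Slc7a11, at 0.30, and Akr1b8 to Nqo1, at 0.22, and the nearest member took place 26 among all genes by closeness to Slc7a11, 21 by closeness to Hmox1, 31 by closeness to Nqo1 and 121 by closeness to Akr1b8.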

How the data were processed

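Per the labels' protocols, total lung RNA was isolated on RNeasy columns with DNase digestion, turned into biotinylated copy RNA (TotalPrep) and hybridised to Illumina mouse arrays. Per the file headers, the authors deposited raw probe intensity with a detection p-value for each probe and array. Values below 0 (18.3 to 21.0% of probes) show that a background had been subtracted, by a method not given in the sources used here. A table of processed intensity that the authors deposited, of unstated normalization, served as an alternative.

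The raw intensity was background corrected with limma's normal-exponential model, raised by an offset of 16, which understates changes of dim probes, quantile normalized and log2 transformed (neqc, limma 3.58.1 in R 4.3.3). A probe stayed in if 3 or more of the 12 arrays gave it a detection p below 0.05 (15490 of 25697, for 10541 named genes), and the brightest stood for its gene. Symbols came from the platform annotation, updated through gene identifiers (23962 of 23978 found in RefSeq). The 12 arrays entered a single linear model of 4 group means (lmFit, eBayes, 8 residual and 4.54 prior degrees of freedom), with two-sided p-values adjusted by Benjamini-Hochberg over the kept probes. The fit was run on simulated arrays with independent noise and known changes in a single group. Deviations shared among arrays or probes were not part of that run. Arrays that share a replicate number did not deviate together (correlations of -0.39 to 0.25 between groups), so no pairing was used. Genes named beyond the members were those of each list with the 4 smallest p or past the test. The 2 nearest in profile to each member that passed were named too. So were Keap1, Gstp1, the highest or lowest markers of a list, and genes gained without 1 array. Keap1, Gstp1 and the gained genes were chosen after their values were seen. The members, lists and rules were chosen with earlier results of these data known. Alternatives covered background, offset, normalization, filter, probes, block, weights, arrays fitted and each array left out. The headers give no slide, so no slide block was run.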

Additional observations from a re-analysis of the deposited data

How the results depend on the processing

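Leaving out each array in turn gave 1 to 4 members called higher at 4 months and 3 to 4 at 6 months (main counts 3 and 3), and 0 called for the change with age. It gave 0 to 3 pathway genes called higher at 4 months (main count 0), 0 to 3 called higher at 6 months and 0 to 3 called lower at 6 months (main counts 2 and 2). The other settings left the member counts at 2 to 4, the 2 arising at both ages where a filter on all 12 arrays removed Slc7a11, and at 4 months also with the replicate block or a single-age fit. They moved the pathway counts more: array weights called 7 higher at 4 months, the mean of all probes 2, and an offset of 50 or no filter 1. At 6 months the single-age fit called 1 higher, and 1 was lower with an offset of 50, equal medians, cyclic loess, the filter on all arrays, the replicate block or the single-age fit. The cause of these moves was not tested.

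Of the 12 arrays, 3 correlated best with an array of their own replicate number. With that number as a replicate block, Akr1b8 had an adjusted p of 0.0582 at 4 months and Nfe2l3 one of 0.0504 at 6 months. The block changed no other call of a member or of the 4 pathway genes that passed.

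Differences near 0 changed sign in places, none of them called. Gpx2 at 6 months was at -0.04 with equal medians, -0.11 with array weights and -0.22 to 0.13 on leaving out each array, and Gclc and Nfe2l2 there spanned -0.02 to 0.34 and -0.11 to 0.19. Slc40a1 at 4 months spanned -0.28 to 0.23. For the change of the smoke difference with age, Txnrd1 spanned -0.37 to 0.13 and Gpx2 -0.02 to 0.34. Dim signal limits the folds of Slc7a11, Nqo1, Txnrd1, Gclc, Mafk and Nfe2l3.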
